A study of Mus musculus with 96 samples.

Results

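The mitochondrial ribosomal protein genes of mouse back-skin epidermis are described here across 4 genotypes and 6 circadian times. They were taken as all gene IDs of the deposited tables that begin with Mrpl or Mrps followed by a digit, without pseudogenes, and that had a mean of at least 0 log2 RPKM (reads per kilobase scaled to library size; 0 is 1 RPKM) over the 96 libraries. Of 78 such IDs among the 22497 genes of the tables, 77 were kept, 48 named Mrpl and 29 named Mrps. Mrpl36, at a mean of -3.44, was the 1 ID below the threshold, and Mrps22, at 1.45, was the lowest above it, so neither lay close to it. All 77 were among the 11028 genes of the tables that reached the same threshold and were tested.

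Mitochondria carry their own ribosome, built from a large and a small subunit, which translates the few proteins that mitochondrial DNA encodes, all of them parts of the respiratory chain and ATP synthase. Its protein subunits are encoded in the nucleus, made in the cytosol and imported. Some have counterparts in the bacterial ribosome and others are found only in mitochondria. The circadian clock is driven by BMAL1, the product of Arntl, which pairs with CLOCK and binds E-box sequences, and respiratory metabolism of several tissues is known to follow the time of day.

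Polyadenylated RNA was sequenced from the epidermis of 8-week-old female C57BL/6 mice after 156 to 176 h in constant darkness, with 4 mice, which the labels call biological replicates, at each of CT0, CT4, CT8, CT12, CT16 and CT20 in each genotype. BRE mice were Arntl stopFL/stopFL and carried Syt10-Cre (tg/wt), which acts in the brain clock, while their K14Cre was wt/wt. EpiRE mice were also Arntl stopFL/stopFL and had the reverse pair, with K14Cre (tg/wt), which acts in keratinocytes of the epidermis, and Syt10-Cre wt/wt. RERE mice were Arntl stopFL/stopFL with K14Cre and Syt10-Cre each present as tg/wt. WT mice had Arntl wt/wt and carried both drivers too, K14Cre as wt/tg and Syt10-Cre as tg/wt. Cre removes the stop from Arntl, so each of the first 3 genotypes has a clock only where its Cre acts, and cells of the epidermis that K14Cre does not reach keep the stopped allele.

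Library totals, as worked out from the scaling of the deposited values, were 11.1 to 19.9 M reads, with a median of 15.2 M. The level of Arntl did not check the genotypes, since its medians were 3.86 log2 RPKM in BRE, 4.11 in EpiRE, 4.13 in RERE and 3.94 in WT, but its 24 h amplitude was 0.06 in BRE, 0.21 in EpiRE, 1.01 in RERE and 1.1 in WT. Of 14 clock genes tested, 1 was called rhythmic in BRE, 0 in EpiRE, 14 in RERE and 14 in WT. Basal keratinocyte markers, which fit the epidermal label, summed to between 11300 and 18000 RPKM in every library, while those of fibroblasts, endothelium, muscle and adipocytes were all below the tested range, with sums of at most 9.55 RPKM. Suprabasal markers summed to 12400 to 20800 RPKM in BRE, 9800 to 17400 in EpiRE, 9520 to 18600 in RERE and 9580 to 16400 in WT. Markers of other cells were detected too. Over all libraries they summed to 391 to 1260 RPKM for hair follicle and 123 to 345 for Langerhans and myeloid cells. For sebaceous gland the sums were 88.8 to 278 RPKM, and for T cells 24.4 to 145. From the mean of their genotype over all times, 3 libraries deviated by over 1.5 times the median deviation of that genotype. They were EpiRE CT0 replicate 1 (1.89 times), RERE CT0 replicate 2 (1.66 times) and EpiRE CT8 replicate 1 (1.51 times). Differences between times are part of this deviation. Without them the members called for rhythm were 0 in EpiRE, as before, and 1 in RERE in place of 2. The share of all genes called was then 0.0% in EpiRE and 16.5% in RERE, in place of 0.0% and 19.4%.

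The 77 genes were expressed at moderate levels. RPKM is a level per length, so genes can be compared with each other. The highest means over the 96 libraries were 5.92 log2 RPKM for Mrps21 and 5.60 for Mrpl54, with Mrpl52 between them at 5.87. Mrps22, Mrps25 (1.56) and Mrpl1 (1.65) were lowest. By class, the median was 3.94 for the 29 large-subunit proteins with bacterial counterparts, 3.80 for the 21 large-subunit proteins specific to mitochondria and 3.76 for the 16 small-subunit proteins with bacterial counterparts, against 3.08 for the 10 small-subunit proteins specific to mitochondria. Mrps36, now assigned to the 2-oxoglutarate dehydrogenase complex rather than to the ribosome, stood apart from these classes with a mean of 3.58. The genes are spread over 17 chromosomes, and 19 of them overlap another tested gene in the annotation, all but Mrps6 and Mrps24 with at least 1 partner on the opposite strand. Strand use in counting is not stated in the labels, so for those 19 a share of the reads may belong to the partner.

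Several members with known special roles lay within the same range. Mrpl12 (4.48 log2 RPKM), which forms the stalk where translation factors bind and also binds the mitochondrial RNA polymerase, Mrpl11 (2.36), at the base of that stalk, and Mrps12 (4.95), at the decoding centre, are examples. Mrpl58 (3.84) is a peptidyl-tRNA hydrolase that became part of the large subunit. The related Mrps18a, Mrps18b and Mrps18c had means of 4.43, 2.92 and 3.80, and Mrps18a and Mrps30 (4.11) sit in the large subunit in spite of their names. In the main fits described below, none of these 8 genes passed the test for rhythm in any genotype. In WT 11.7% of the 77 members and 33.3% of all genes did. Other fits called some of the 8, such as Mrpl11, Mrpl58 and Mrps18c in WT after centring each library on its median. Only Mrpl12 of the 8 passed a main test of level, the one between BRE and WT, where 24.4% of all genes were lower. That call held in 4 of 11 other fits.

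Promoter sequences were matched for 68 of the 77 genes, with 74 start sites (RefSeq, GRCm38.p6). In the 250 bases before the start, the NRF1 motif, bound by a regulator of nuclear genes for mitochondrial proteins, was found in 13.5% of member promoters and in 3.74% of all 32851 promoters. The letters CCGGAAG, the core bound by ETS factors such as GABP, were found in 24.3% of member promoters and 6.91% of all. The E-box CACGTG was found in 8.11% of member promoters and 6.02% of all. Both strands were searched, and a match describes letters and not binding. Shown here, chosen after the search and with matched letters in capitals, are 3 genes that were called rhythmic in WT and hold 1 kind of motif each (Mrpl2 the E-box, Mrpl45 the NRF1 motif in 2 places, Mrpl52 the ETS letters on the other strand), Mrpl12, which was lower in BRE and holds the NRF1 motif, and Mrps9, which had the smallest p of level and holds none of the 3 in this window; no 2 of the matches shown overlap. Each sequence ends at the base before the RefSeq start. Their places are chr17:46645971-46646220 for Mrpl2, chr11:97315466-97315715 for Mrpl45, chr14:54426659-54426908 for Mrpl52, chr11:120484387-120484636 for Mrpl12 and chr1:42850983-42851232 for Mrps9, all on the plus strand.
Mrpl2: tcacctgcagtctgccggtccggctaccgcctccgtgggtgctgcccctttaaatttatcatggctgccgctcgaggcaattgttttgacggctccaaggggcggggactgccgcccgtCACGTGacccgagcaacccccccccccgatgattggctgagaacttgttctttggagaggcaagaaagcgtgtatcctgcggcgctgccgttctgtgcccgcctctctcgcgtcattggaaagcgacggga
Mrpl45: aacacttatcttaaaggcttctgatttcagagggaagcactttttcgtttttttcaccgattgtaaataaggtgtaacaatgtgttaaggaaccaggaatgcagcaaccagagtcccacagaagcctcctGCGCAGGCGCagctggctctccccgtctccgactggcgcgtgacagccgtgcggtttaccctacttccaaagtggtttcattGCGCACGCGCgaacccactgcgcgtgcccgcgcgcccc
Mrpl52: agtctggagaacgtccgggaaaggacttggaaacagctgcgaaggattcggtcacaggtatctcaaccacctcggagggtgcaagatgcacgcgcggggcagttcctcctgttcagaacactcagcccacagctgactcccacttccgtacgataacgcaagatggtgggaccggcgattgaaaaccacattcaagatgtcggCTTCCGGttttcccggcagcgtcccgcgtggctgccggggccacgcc
Mrpl12: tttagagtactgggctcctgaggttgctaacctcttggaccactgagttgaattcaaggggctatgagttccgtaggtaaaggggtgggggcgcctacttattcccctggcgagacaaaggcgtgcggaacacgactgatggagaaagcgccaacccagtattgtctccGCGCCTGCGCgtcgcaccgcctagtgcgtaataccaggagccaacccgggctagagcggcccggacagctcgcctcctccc
Mrps9: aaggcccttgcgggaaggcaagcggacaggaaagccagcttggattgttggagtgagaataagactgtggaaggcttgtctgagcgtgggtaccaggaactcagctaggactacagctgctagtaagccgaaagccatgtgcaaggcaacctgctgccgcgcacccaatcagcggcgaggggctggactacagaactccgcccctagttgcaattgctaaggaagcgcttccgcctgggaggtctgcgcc
Of the 7 genes that were rhythmic in WT and had a sequence, the E-box, the NRF1 motif and the ETS letters were each held by 1. Mrpl2 has 3 annotated starts, of which the one shown holds its E-box between 131 and 126 bases before the start.

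The first comparison asked whether the genes follow a 24 h rhythm in epidermis with an intact clock. In WT, 9 of the 77 genes (11.7%) were called rhythmic by limma's moderated F test of a 24 h cosine and sine with Benjamini-Hochberg adjustment, while 33.3% of all genes tested were called. Their amplitudes, the height of the fitted curve over its mean, were 0.12 to 0.25 on the log2 scale, and 8 of the 9 peaked between CT0 and CT6, where 22.8% of all genes called in WT peaked. Those 8 were Mrps28, Mrpl54, Mrpl2, Mrpl21, Mrpl23, Mrpl52, Mrpl45 and Mrpl24. The ninth, Mrps14, peaked at CT22.8. Of the large-subunit proteins, 4 of 29 with bacterial counterparts (13.8%) and 3 of 21 specific to mitochondria (14.3%) were called. Of the small-subunit proteins, 2 of 16 with bacterial counterparts (12.5%) and 0 of 10 specific to mitochondria were called. With 11.7% of all members called, these counts are too small to set the classes apart.

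Mrps28, a small-subunit protein (ENSMUSG00000040269, chromosome 3, 8802146 to 8923918, mm10), had 4.56, 4.64, 4.24 and 4.30 log2 RPKM in the 4 WT libraries of CT0, against 4.03, 3.73, 4.17 and 3.72 at CT12. All libraries of CT0 were above all of CT12. Its WT amplitude was 0.25 ± 0.05 (SE, n = 24), a peak 1.19-fold over the mean, at CT1.7 (limma, adjusted p = 0.00302). Mrps28 was the 1 member that stayed called in WT in each of the 11 other fits made, with adjusted p from 0.00113 to 0.0375.

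Mrpl54, a large-subunit protein specific to mitochondria (ENSMUSG00000034932, chromosome 10, 81264713 to 81266934), had 5.65, 5.75, 6.20 and 6.10 log2 RPKM in WT at CT4, against 5.31, 5.30, 5.51 and 5.35 at CT12. The libraries of these times did not overlap. Its WT amplitude was 0.23 ± 0.05 (SE, n = 24) at CT2.7 (limma, adjusted p = 0.00548), and the call did not hold without replicate 2 or without replicate 4 (highest adjusted p of the 11 fits 0.0591, lowest 0.00132). Mrpl2 (ENSMUSG00000002767, chromosome 17, 46646229 to 46650139), the counterpart of a bacterial protein near the site where peptide bonds form, had 4.46, 4.63, 4.85 and 4.80 at CT4, against 4.29, 4.40, 4.40 and 4.37 at CT12. Again the libraries of these times did not overlap, though 1 of the 4 libraries of CT8 reached 4.81. Its amplitude was 0.16 ± 0.04 (SE, n = 24) at CT2.1 (limma, adjusted p = 0.0187), a call lost without replicate 1, without replicate 2 and with CT as a factor.

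The other calls in WT were smaller or closer to the threshold. Mrpl23, which in bacteria lies at the exit of the peptide tunnel, had an amplitude of 0.18 ± 0.05 (limma, adjusted p = 0.0326). Mrpl21, Mrpl52 and Mrpl45, which anchors the large subunit to the inner membrane, each had 0.16 ± 0.05, with adjusted p of 0.0299, 0.0343 and 0.0352 (limma). Mrps14 had 0.15 ± 0.05 and Mrpl24 0.12 ± 0.04, with adjusted p of 0.0422 and 0.0475. In the 11 other fits, Mrpl21 and Mrpl23 stayed called in 8 each, Mrpl52 in 6, Mrpl45 in 5, Mrpl24 in 4 and Mrps14 in 3. The number called was 4 without replicate 1, 2 without replicate 2, 6 without replicate 3 and 7 without replicate 4, each of which leaves out 6 WT libraries. The share of all genes called was lower in these fits too, at 21%, 18.5%, 24.4% and 18.3%. After centring each library on its median 14 members were called (35.6% of all genes), and with CT as a factor 3 were (20.3% of all genes). By the authors' deposited table, with q under 0.05 in both programs, 0 of the 77 were rhythmic in any genotype, while of all genes tested 0.0% were in BRE, 0.0% in EpiRE, 1.76% in RERE and 7.73% in WT. Mrps28 in WT, Mrpl54 in WT and Mrpl54 in RERE passed in JTK_CYCLE alone (q = 0.0165, 0.0406 and 0.0122). In BIOCYCLE they did not (q = 0.0722, 0.134 and 0.134).

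**Figure D1:**
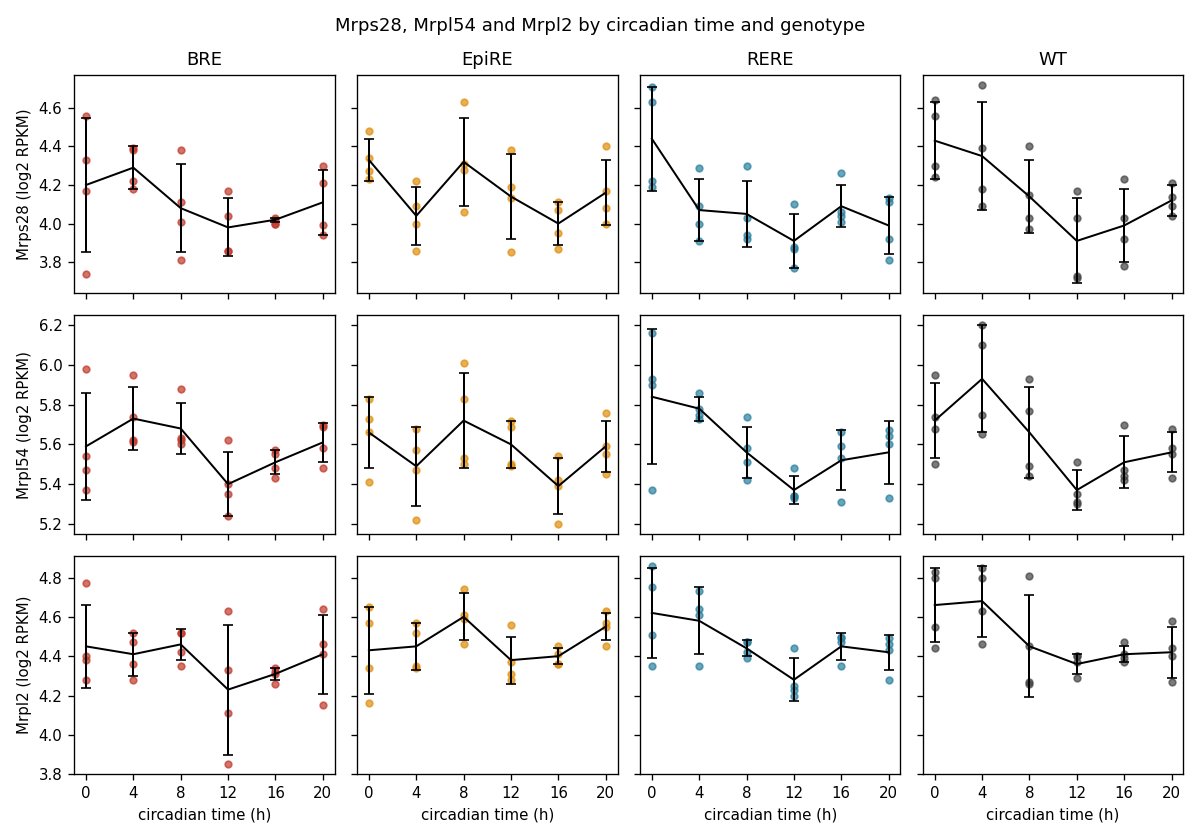
Level of Mrps28, Mrpl54 and Mrpl2 (rows, log2 RPKM) by circadian time in h (x axis) in BRE, EpiRE, RERE and WT (columns); points are libraries, and lines join the means of 4 libraries with their SD. In WT all 3 are lowest at CT12, with means of 3.91, 5.37 and 4.36, and highest at CT0 or CT4.

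The second comparison asked what remained of these rhythms where the clock runs only in some tissues. In BRE, with 1.09% of all genes called, 0 of 77 were called by limma, with 5 at an unadjusted p under 0.05 (18.8% of all genes), and limma-voom on recovered reads also called 0. In EpiRE, 0 of 77 and 0.0% of all genes were called, with 0 members and 12.6% of all genes at an unadjusted p under 0.05, and limma-voom called 0 members. In RERE, 2 of 77 (2.6%) were called, Mrpl54 and Mrpl2, against 19.4% of all genes. Both were also called in WT. Mrpl54 had an amplitude of 0.21 ± 0.05 (SE, n = 24) in RERE at CT1.4 (limma, adjusted p = 0.00829). Its RERE libraries of CT0 had 5.37, 5.90, 6.16 and 5.93 log2 RPKM, against 5.48, 5.34, 5.33 and 5.34 at CT12. All libraries of CT0 but replicate 1 were above all of CT12, and replicate 1 lay within their range. The call of Mrpl54 did not hold without replicate 2, 3 or 4 (highest adjusted p over 12 fits 0.0769, lowest 0.00212). Mrpl2 had 0.14 ± 0.04 at CT1.3 (limma, adjusted p = 0.039), a call lost in 6 of 12 other fits, among them that without the library that stood apart (highest adjusted p over 12 fits 0.287, lowest 0.0121). Without replicates 1, 2, 3 and 4 in turn, RERE had 4, 0, 1 and 2 called members, and 6 with CT as a factor. Of all genes tested, 14.8%, 8.11%, 7.91%, 10.6% and 15.2% were called in these fits.

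The genes with the next smallest p did not pass. In RERE these were Mrpl11 (amplitude 0.14, limma adjusted p = 0.0523), Mrps17 (0.15, adjusted p = 0.0909), Mrpl24 (0.11, adjusted p = 0.0916) and Mrps28 (0.16, adjusted p = 0.0946). In BRE, Mrpl16, Mrps14, Mrpl23, Mrps28, Mrpl54 and Mrpl47 had amplitudes of 0.10 to 0.16 with limma adjusted p from 0.169 to 0.357. In EpiRE, Mrpl23, Mrpl38, Mrps26, Mrps5, Mrps17 and Mrps6 had amplitudes of 0.08 to 0.11 with adjusted p from 0.427 to 0.618. Over all 77 genes the median amplitude was 0.05 in BRE, 0.05 in EpiRE, 0.07 in RERE and 0.09 in WT, and over all genes tested it was 0.07, 0.07, 0.10 and 0.12. Fitted amplitudes cannot fall below 0, even where a gene is flat. The upper end of the 95% interval of the amplitude stayed under 0.5 for every member in every genotype, the highest being 0.30 for Mrpl47 in BRE, 0.24 for Mrps6 in EpiRE, 0.31 for Mrpl54 in RERE and 0.36 for Mrps28 in WT.

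**Figure D2:**
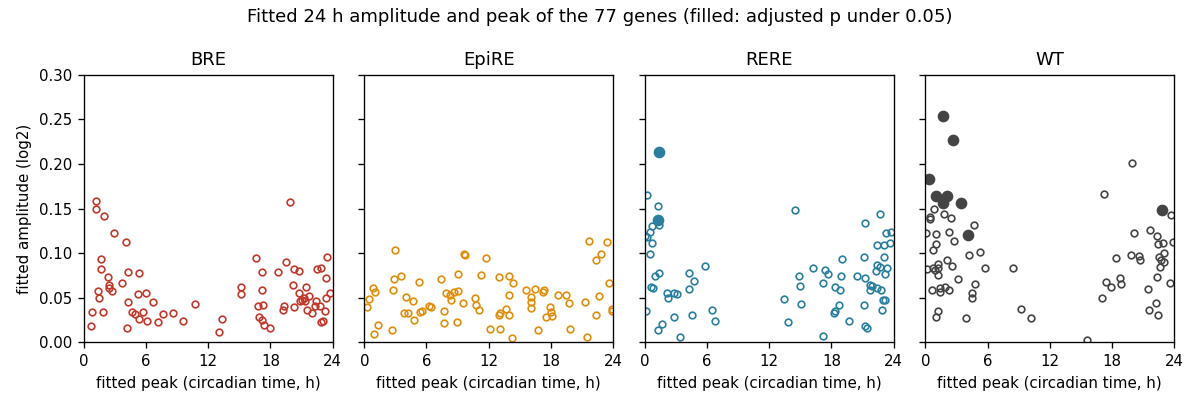
Fitted 24 h amplitude (log2) against fitted peak time (h) of the 77 genes in BRE, EpiRE, RERE and WT; filled points passed limma's adjusted p of 0.05. Amplitudes reach 0.16 in BRE, 0.11 in EpiRE, 0.21 in RERE and 0.25 in WT, and in RERE and WT few genes peak between CT6 and CT18.

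The difference of the rhythms was tested itself and gave 0 called members in all 6 contrasts, by limma and by limma-voom. Between BRE and WT, 5.71% of all genes tested were called and 3 members had an unadjusted p under 0.05 (19.8% of all genes), led by Mrpl45 (limma, adjusted p = 0.222) and Mrpl4 (0.231). Between EpiRE and WT, 1.61% of all genes were called and 6 members had an unadjusted p under 0.05 (16% of all genes), led by Mrpl24 (adjusted p = 0.221) and Mrpl43 (0.245). Between RERE and WT, 0.0% were called, with 1 such member and 7.55% of all genes, Mrpl24 (adjusted p = 0.647), ahead of Mrps14 (0.726). Between RERE and EpiRE, 1.06% were called, with 3 such members (11.6% of all genes), led by Mrpl24 (0.411) and Mrpl54 (0.424). Between RERE and BRE, 4.23% were called, with 2 such members (15.5% of all genes), Mrpl24 (0.220) and Mrpl16 (0.243). Between EpiRE and BRE, 0.0% were called and 0 members and 8.51% of all genes had such a p, Mrpl47 (0.642) and Mrps7 (0.661) having the smallest. A rhythm called in WT and not in another genotype is thus not shown to differ between them for any member.

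Fitted peaks of the members, called or not, lay in the 12 h between CT18 and CT6 for 56 of 77 genes (72.7%) in BRE, 35 (45.5%) in EpiRE, 64 (83.1%) in RERE and 69 (89.6%) in WT. Over all genes tested these shares were 59.2%, 42.2%, 50.0% and 49.5%. The same window held the peaks of 69.3% of the other genes with a length of at most 1000 bases in RERE, 70.2% of those of 1000 to 2000 bases, 55.3% of those of 2000 to 4000 bases and 33.8% of those over 4000 bases. In WT these shares were 71.3%, 68.8%, 53.6% and 34.3%. They were 60.8%, 65.8%, 61.6% and 54.4% in BRE, and 42.1%, 47.8%, 44.3% and 38.2% in EpiRE. The members have a median length of 1383 bases (435 to 7551). Peak time moved with gene length across the transcriptome in RERE and WT, and much less in BRE and EpiRE. The part of length in the members' peaks was not tested. Peaks of members are not independent of each other, as the shared deviations described next show.

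The members varied together from library to library. The mean over the 77 genes ranged from 3.52 to 3.93 log2 RPKM in BRE, 3.61 to 3.91 in EpiRE, 3.57 to 4.08 in RERE and 3.53 to 3.97 in WT. In WT the 4 libraries of CT0 had 3.96, 3.97, 3.66 and 3.75, those of CT4 3.66, 3.68, 3.93 and 3.94, and those of CT12 3.72, 3.73, 3.67 and 3.53. The SD within a time was 0.10 in BRE, 0.07 in EpiRE, 0.11 in RERE and 0.14 in WT, while the highest and lowest of the 6 time means differed by 0.08, 0.06, 0.18 and 0.17.

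**Figure D3:**
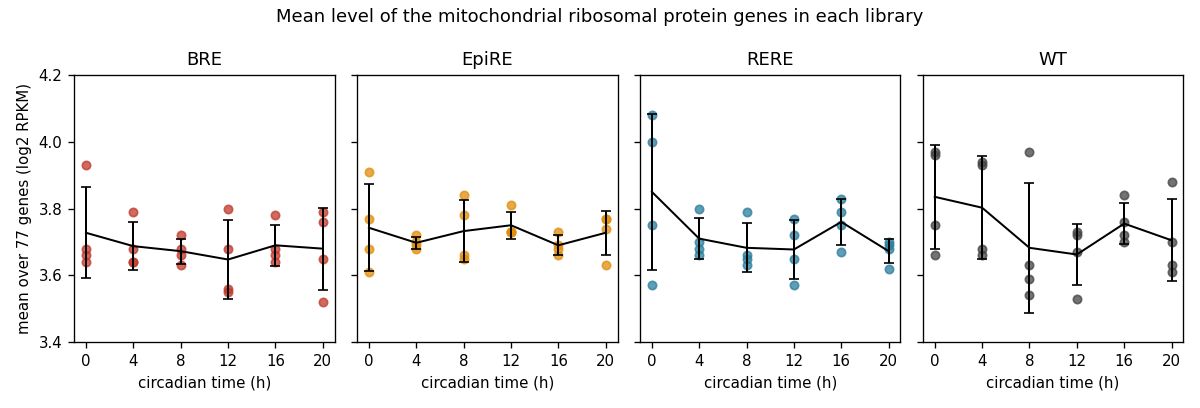
Mean level of the 77 genes (log2 RPKM) in each library by circadian time in h, in BRE, EpiRE, RERE and WT; points are libraries and lines join the means of 4 libraries with their SD. The highest time means are 3.85 in RERE and 3.84 in WT, both at CT0, where single libraries reach 4.08 and 3.97.

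Single genes were no noisier than others, but their deviations went the same way. The SD between libraries of 1 genotype and time had a median of 0.168 over the members and 0.164 over all genes tested, and ran from 0.106 for Mrpl3 to 0.269 for Mrps6. The correlation of 2 members' deviations over the 96 libraries had a median of 0.42 over 2926 pairs, of which 99.0% were above 0, while all pairs of genes tested had a median of 0.04 with 57.0% above 0. Mrpl2 (mean correlation with the other members 0.53), Mrps12 and Mrps34 (0.52 each) were closest to the rest, and Mrps18b (0.12), Mrpl32 and Mrps22 (0.15 each) farthest. With other sets the median was 0.48 for 47 subunits of oxidative phosphorylation (median length 950 bases) and 0.45 for 80 cytosolic ribosomal proteins (763 bases). It was 0.29 for assembly factors of the mitochondrial ribosome (2068 bases), 0.23 for genes of mitochondrial DNA transcription and replication (3451 bases), 0.21 for mitochondrial aminoacyl-tRNA synthetases (4139 bases) and 0.19 for mitochondrial translation factors (2586 bases). With other genes it was 0.26 for lengths of at most 1000 bases, 0.24 for 1000 to 2000 bases, 0.14 for 2000 to 4000 bases and -0.03 above 4000 bases. These values describe 1 set of 96 libraries that share their preparation and scaling. Total reads moved little with them, the correlation of the members with the log2 total having a median of -0.04 (-0.32 to 0.20).

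The third comparison asked whether the level of the genes differs between genotypes, over all times. It was tested with CT as a factor in 48 libraries per contrast. Between RERE and WT 0 members were called by limma (2.24% of all genes), between EpiRE and WT 0 (2.23%) and between RERE and EpiRE 0 (0.00907%), and limma-voom called 0 in each. In these contrasts 2, 2 and 0 members had an unadjusted p under 0.05, against 13.8%, 10.2% and 5.9% of all genes. Mrps9 had the smallest p in both contrasts with WT. It was -0.12 ± 0.04 in RERE minus WT (limma, adjusted p = 0.117) and -0.10 ± 0.04 in EpiRE minus WT (adjusted p = 0.288). Next were Mrpl18 in RERE minus WT (-0.09 ± 0.04, adjusted p = 0.315) and Mrps18c in EpiRE minus WT (-0.11 ± 0.05, adjusted p = 0.455). Between RERE and EpiRE, Mrpl3 (0.06 ± 0.03, adjusted p = 0.881) and Mrps5 (-0.07 ± 0.04, adjusted p = 0.904) had the smallest p. The difference was under 0.1 on the log2 scale for 76, 76 and 77 of the 77 genes in these 3 contrasts.

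BRE, in which no Cre acts in the epidermis, was lower than WT for 8 members (10.4%) and higher for 0, by limma with an adjusted p under 0.05. Of all genes tested, 24.4% were lower and 12.5% higher, so the share of members called lower was under that of all genes. The 8 genes belong to both subunits: Mrps9 and Mrps35 of the small one, and Mrpl24, Mrpl34, Mrpl15, Mrpl48, Mrpl40 and Mrpl12 of the large one. Mrps9 (ENSMUSG00000060679, chromosome 1, 42851233 to 42905683) had a lowest, median and highest level of 2.33, 2.55 and 2.72 log2 RPKM in BRE, against 2.48, 2.74 and 3.00 in WT. All 24 BRE libraries were below the WT median, with the ranges overlapping. The difference was -0.20 ± 0.03 (SE), 0.868-fold (limma, adjusted p = 4.47e-06). For Mrpl24 (ENSMUSG00000019710, chromosome 3, 87919506 to 87923672) these levels were 4.48, 4.61 and 4.74 in BRE, against 4.49, 4.77 and 5.13 in WT. Again 24 of 24 BRE libraries were below the WT median, and the difference was -0.17 ± 0.04 (limma, adjusted p = 0.000124). Mrpl24 overlaps Rrnad1 on the other strand, which was not called (-0.08 ± 0.06, adjusted p = 0.242).

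Mrps35, a small-subunit protein specific to mitochondria (ENSMUSG00000040112, chromosome 6, 147042764 to 147073991), had 3.68, 3.96 and 4.27 log2 RPKM as its lowest, median and highest level in BRE, against 3.89, 4.13 and 4.65 in WT. It was below the WT median in 19 of 24 BRE libraries, and the difference was -0.20 ± 0.05 (limma, adjusted p = 0.00226). Mrpl34 was -0.15 ± 0.06 (adjusted p = 0.0439). Mrpl48 was -0.14 ± 0.04 (adjusted p = 0.00997), and its partner on the other strand, Rab6a, was not called (-0.03 ± 0.03, adjusted p = 0.401). Mrpl15, Mrpl40 and Mrpl12 were each -0.13, with adjusted p of 0.00839, 0.0139 and 0.0369 (limma).

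Mrps9, Mrpl24 and Mrps35 stayed called in all 11 other fits of BRE against WT, with a highest adjusted p of 0.000458, 0.00558 and 0.0287. Of the other 5, Mrpl15 stayed called in 10 of the 11, Mrpl40 and Mrpl48 in 8 each, Mrpl34 in 6 and Mrpl12 in 4. The highest adjusted p was 0.243 for Mrpl34 and 0.109 for Mrpl12 (limma). The number called was 4 without replicate 1 and 5 without replicate 2. Each of these fits leaves out 6 libraries of each genotype, and the shares of all genes called in them are not given here. After centring each library on its median over all genes tested, the split was 1 higher (Mrpl45) and 4 lower, in place of 0 and 8. Before centring 7 of the 77 differences were above 0 and after it 32 were, and the median of the members went with that of all genes tested (-0.044 and -0.046 before, -0.005 and -0.007 after). The difference of Mrpl45 was 0.10 ± 0.05 before centring (limma, adjusted p = 0.0881) and 0.14 after (adjusted p = 0.0164). For all 77 genes the 95% interval of the difference lay within 0.5 of 0, on the log2 scale. Suprabasal markers moved with the same contrast: 7 of 9 were higher in BRE than in WT and 0 lower, while 2 of 7 basal markers and 3 of 5 hair follicle markers were lower and 0 higher. Of 5 T cell markers, Thy1 was higher (0.64 ± 0.14, limma adjusted p = 0.000304), while Cd3g and Cd3e were lower. Of 7 Langerhans and myeloid markers 2 were lower (Epcam and Cd74) and 0 higher, and of 4 sebaceous gland markers 1 was higher (Scd1) and 0 lower. The 1 melanocyte marker tested (Pmel) was lower, and the 1 red blood cell marker tested (Hbb-bs) was higher. The part of cell composition in the differences of the members was not tested, and in bulk tissue fewer cells of a type and less RNA per cell cannot be told apart.

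**Figure D4:**
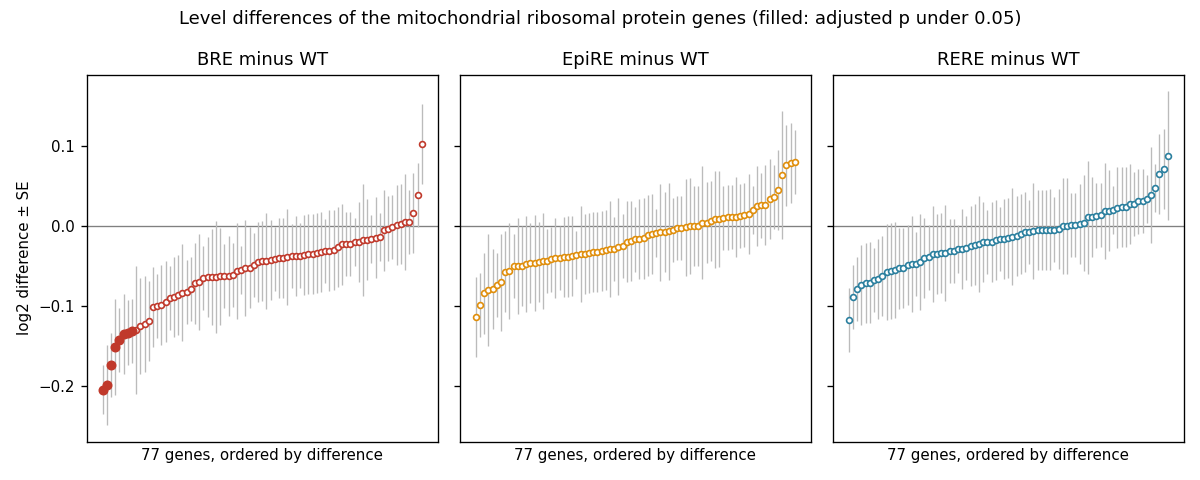
Difference in level (log2, with SE) of the 77 genes between BRE, EpiRE or RERE and WT, ordered within each panel; filled points passed limma's adjusted p of 0.05. In BRE minus WT 70 of 77 genes lie below 0 and 8 are filled, and in the other panels 53 and 51 lie below 0 and 0 are filled.

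Set against BRE, the genotypes with K14Cre were also higher for some members. In EpiRE minus BRE, 9 members (11.7%) were higher and 0 lower, while 23.0% of all genes were higher and 11.0% lower. In RERE minus BRE, 6 members (7.79%) were higher and 0 lower, while 17.4% of all genes were higher and 10.0% lower. These 2 contrasts and that with WT share the BRE libraries, so they are not independent of each other. Cell type markers moved with them. In EpiRE minus BRE, 6 of 9 suprabasal markers were lower and 1 higher, 4 of 5 T cell markers higher and 1 (Thy1) lower, 2 of 7 basal markers higher and 1 of 5 hair follicle markers lower. In RERE minus BRE, 5 of 9 suprabasal markers were lower and 1 higher, 1 of 5 T cell markers (Thy1) lower and 2 of 7 basal markers higher. Their part in the differences of the members was not tested. Mrps6 was 0.19 ± 0.06 higher in EpiRE (limma, adjusted p = 0.0156) and 0.22 ± 0.07 in RERE (adjusted p = 0.0149). It had medians of 3.43 log2 RPKM in EpiRE and 3.45 in RERE, against 3.17 in BRE, and 21 and 22 of 24 libraries were above the BRE median. Mrps6 shares its strand and part of its span with Slc5a3, a transporter of myo-inositol, which was 0.28 ± 0.09 in EpiRE minus BRE (adjusted p = 0.0131) and 0.17 ± 0.10 in RERE minus BRE (adjusted p = 0.204), so how reads were divided between the pair is uncertain.

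Mrps35 was 0.18 ± 0.05 higher in EpiRE than in BRE (limma, adjusted p = 0.00323) and 0.15 ± 0.05 higher in RERE (adjusted p = 0.0295). Mrpl48 was 0.15 ± 0.04 higher in EpiRE (adjusted p = 0.00199) and 0.14 ± 0.04 in RERE (adjusted p = 0.0149). Mrpl50 was 0.13 ± 0.04 higher in EpiRE (adjusted p = 0.00865) and 0.11 ± 0.04 in RERE (adjusted p = 0.0483). Mrpl24 and Mrpl15 were also higher in both, by 0.11 to 0.12, and Mrps5, Mrps9 and Mrpl40 in EpiRE by 0.10 to 0.12. After centring each library on its median, the split was 2 higher and 1 lower (Mrpl45) in EpiRE minus BRE, and 1 higher (Mrps6) and 0 lower in RERE minus BRE. In EpiRE minus BRE 3 members were called without replicate 3. In RERE minus BRE, 11, 0, 2 and 4 members were called without replicates 1, 2, 3 and 4 in turn. Each of these fits leaves out 6 libraries of each genotype, and the shares of all genes called in them are not given here. Mrps35 and Mrpl48 stayed called in all 12 other fits of EpiRE minus BRE, with adjusted p of up to 0.0315 and 0.0341.

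**Figure D5:**
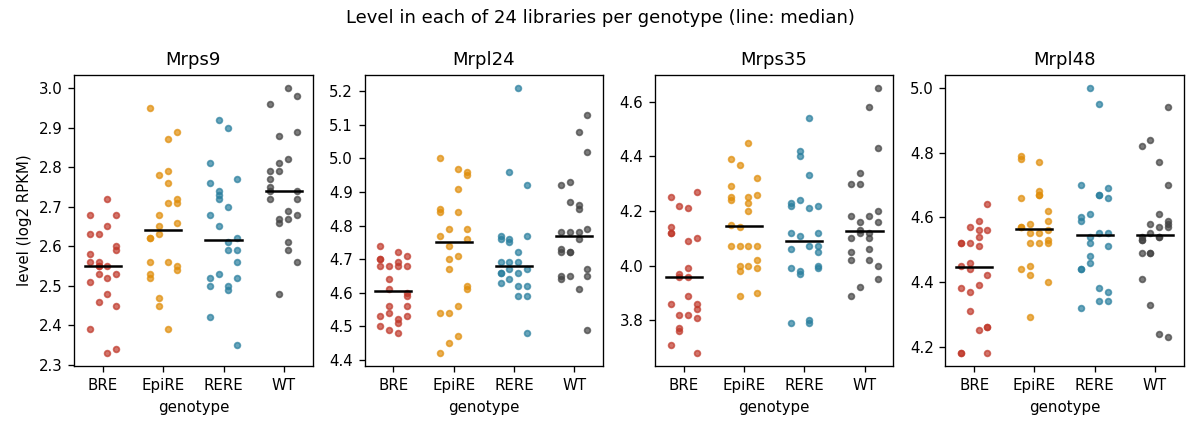
Level (log2 RPKM) of Mrps9, Mrpl24, Mrps35 and Mrpl48 in each of the 24 libraries of BRE, EpiRE, RERE and WT; points are libraries and lines are medians. BRE has the lowest median for each gene, 2.55, 4.61, 3.96 and 4.44, and the ranges of the genotypes overlap.

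Other genes of mitochondrial gene expression were counted from lists, against shares of all genes called rhythmic of 1.09% in BRE, 0.0% in EpiRE, 19.4% in RERE and 33.3% in WT, and of 24.4% lower and 12.5% higher in BRE than in WT. Of 47 nuclear subunits of oxidative phosphorylation, 0 were rhythmic in BRE, 0 in EpiRE, 7 in RERE (14.9%) and 27 in WT (57.4%), and 1 (Ndufv1, -0.09) was lower in BRE than in WT. Atp5d and Atp5b of the ATP synthase had WT amplitudes of 0.16 ± 0.03 at CT2.2 and 0.14 ± 0.03 at CT0.0, and Cox7c of cytochrome c oxidase 0.24 ± 0.05 at CT3.4 (limma, adjusted p = 0.00169, 0.0021 and 0.00564). Of 80 cytosolic ribosomal proteins, 0 were rhythmic in BRE, 0 in EpiRE, 1 in RERE (1.25%) and 7 in WT (8.75%), led by Rpl29 (0.15 ± 0.04 at CT4.9, adjusted p = 0.0118). Of 5 further mitochondrial ribosomal proteins under other symbols 0 were rhythmic in any genotype, and Chchd1 was lower in BRE than in WT (-0.17 ± 0.05, adjusted p = 0.00596).

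Factors that serve the mitochondrial ribosome were called in small numbers, and none was called rhythmic in BRE or EpiRE. Of 12 translation factors, 2 were rhythmic in RERE (16.7%) and 3 in WT (25%), in WT the release factor Mtrf1l (0.27 ± 0.06 at CT14.3, limma adjusted p = 0.00848), Taco1 (CT20.1) and the elongation factor Gfm1 (CT21.1), and 2 were lower in BRE than in WT (Gfm2 and Mtrf1l). Of 17 mitochondrial aminoacyl-tRNA synthetases, 4 were rhythmic in RERE (23.5%) and 2 in WT (11.8%), and 1 was higher and 1 lower in BRE than in WT. Mars2, for methionine, had amplitudes of 0.24 ± 0.06 at CT13.7 in RERE (adjusted p = 0.0146) and 0.30 ± 0.06 at CT15.3 in WT (adjusted p = 0.00157), and Wars2, for tryptophan, 0.24 ± 0.04 at CT15.7 in WT (adjusted p = 0.00055). Of 24 assembly factors, 2 were rhythmic in RERE (8.33%) and 0 in WT, and 6 (25%) were lower in BRE than in WT, a share near that of all genes, among them Mrm1 (-0.17 ± 0.06, adjusted p = 0.0152) and Mrm3 (-0.23 ± 0.08, adjusted p = 0.0123), which methylate mitochondrial ribosomal RNA. Of 10 genes for transcription and replication of mitochondrial DNA, 3 were rhythmic in RERE (Polg, Tfb2m and Lrpprc) and 2 in WT (Polg and Lrpprc), and 2 were lower in BRE than in WT, the DNA polymerase Polg (-0.08 ± 0.03, adjusted p = 0.0473) and Tfam (-0.09 ± 0.04, adjusted p = 0.045), which packages mitochondrial DNA.

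Of 9 regulators of mitochondrial biogenesis tested, 4 (44.4%) were lower in BRE than in WT and 0 higher, where 24.4% of all genes were lower and 12.5% higher. These were Nrf1 (-0.17 ± 0.04, limma adjusted p = 0.000164), the coactivators Ppargc1b (-0.26 ± 0.07, adjusted p = 0.00502) and Pprc1 (-0.15 ± 0.05, adjusted p = 0.0204), and Gabpb2 of GABP (-0.10 ± 0.04, adjusted p = 0.0338). In RERE 1 of the 9 was rhythmic (Gabpb2) and in WT 3 were, Ppargc1b, Gabpb2 (0.15 ± 0.04 at CT14.3, limma adjusted p = 0.019) and Gabpb1 (0.12 ± 0.03 at CT1.5, adjusted p = 0.0258). Ppargc1b was rhythmic in WT with an amplitude of 0.22 ± 0.04 at CT10.4 (adjusted p = 0.00129), and its rhythm was called different between BRE and WT. Genes encoded by mitochondrial DNA itself were not analysed here, since none of those listed was among the genes with deposited values.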

How the data were processed

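Polyadenylated RNA of 96 epidermis libraries was analysed, in 24 groups of 4 by genotype and circadian time. The submitters' processing notes name HISAT2 2.2.1 and the mm10 genome, with Trimmomatic 0.36, featureCounts 1.6.0, SAMtools 1.3.1 and edgeR with no version; the labels do not state how molecular identifiers were used or whether counting used strand. The deposited values were log2 RPKM per library, made by the authors, per the file headers, which also give circadian time and replicate number. Each of the 4 genotypes has its own table. For genes near 0 reads, the floors of the other tables lie 0.046 to 0.058 log2 above that of WT. The authors' deposited p-values and q-values of JTK_CYCLE and BIOCYCLE were used only for their own calls. The JTK_CYCLE tables hold 96 value columns whose codes match no label and were not used; their leading digit is out of order in EpiRE and BRE, so the times of these genotypes rest on the BIOCYCLE column names.

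Members and gene lists were chosen with earlier results of these data known. Whole reads could be recovered for 22438 genes (99.74%), with 100.0% of values whole to 0.1 read, and served for limma-voom. Library totals came from the scaling of the values, and recovered reads made up 84.24% to 88.35% of them. Rhythm, differential rhythm and level were fitted on the log2 values with limma 3.58.1 in R 4.3.3 (empirical Bayes with a mean trend), over the 11028 genes with a mean of at least 0, with Benjamini-Hochberg adjustment and calls under 0.05. The fits were tested on simulated data. P-values are over animals and level tests are two-sided. Errors come from the spread between libraries. Genes were named by rank of p, size of difference and level, and for their roles. Alternatives were median centring, no filter, log2(RPKM + 1), limma-voom, the spread of all 96 libraries, a replicate block, leaving out each replicate number, leaving out 3 libraries that stood apart (chosen after seeing the data), and CT as a factor or no CT term. Gene positions are from GENCODE on mm10.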

Additional observations from a re-analysis of the deposited data

Results flagged for a closer look

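In 6 of 144 groups of 4 libraries checked, 1 library lay farther from the other 3 than Dixon's 95% criterion allows, and chance flags about 1 group in 20. The mean over the 77 genes was 3.93 log2 RPKM in the high library of BRE CT0 and 3.81 in that of EpiRE CT12. Mrpl54 had 5.88 in the high library of BRE CT8 and 5.48 in that of RERE CT12. Mrpl24 had 4.56 in the low library of BRE CT12 and 4.45 in a library of EpiRE CT4.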

How the results depend on the processing

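The number of members called moved with the fit. Rhythmic members in WT numbered 9, and 14 after median centring, 5 with no filter, 3 with CT as a factor, 0 by the authors' programs and 2 to 7 without 1 replicate number. In RERE there were 2, and 1 with no filter, 6 with CT as a factor, 0 by the authors' programs, 1 without the library that stood apart and 0 to 4 without 1 replicate number. There the shares of all genes called were 19.4%, and 10.1%, 15.2%, 1.76%, 16.5% and 7.91% to 14.8%. In BRE there were 0, and 0 to 1 without 1 replicate number (Mrpl19 without replicate 3), where the shares of all genes called were 1.09%, and 0.0% to 1.75%. In BRE minus WT 8 members were called, all lower, and after median centring 5 were called (1 higher, 4 lower); leaving out 1 replicate number gave 4 to 8 calls, of which 4 to 7 were lower, with Mrpl45 higher without replicate 3. In RERE minus BRE 6 were called, with 1 after centring and 0 to 11 without 1 replicate number. In EpiRE minus BRE 9 were called, with 3 after centring and 3 to 8 without 1 replicate number. In RERE minus WT 0 were called, and 1 with no filter (Mrps9). For level, shares of all genes called are given for the main fits only, so these counts show no change particular to the members. The cause of the moved counts was not tested, though leaving out a replicate number removes 6 libraries of each genotype. Among values of named genes, 556 kept their side of the threshold, 63 no longer passed, 5 newly passed and 0 turned direction; CT as a factor gives no amplitude. Replicate numbers did not pair the samples: mean correlations of same-numbered deviations ran from -0.19 to 0.11, with 1 of 40 over 0.1. With a replicate block rhythmic members numbered 0 for BRE, 0 for EpiRE, 2 for RERE and 7 for WT, and in level 8 for BRE minus WT, 7 for RERE minus BRE, 9 for EpiRE minus BRE and 0 for the others. The shares of all genes called rhythmic with that block were 0.372% in BRE, 0.0% in EpiRE, 18.8% in RERE and 32.3% in WT.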
